A study of Mus musculus with 8 samples.

Results

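Mitf, Tfeb, Tfe3 and Tfec, the 4 transcription factors of one small family, were examined together with Gpnmb, a gene they are known to regulate. The members are the probe sets whose single gene symbol in the platform annotation is one of these 5 names, which found all 5 genes, of 17097 with a named probe set, through 6 of the 45037 probe sets that are not array controls: 2 for Mitf and 1 for each other gene. A further probe set shared between Gpnmb and another gene was left out by this rule and its values were not examined, so Gpnmb rests on 1 probe set. The values are log2 expression values, so a step of 1 is a doubling of signal.

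The study used C57BL/6 mouse bone marrow cells carrying the Rosa26-Cre-ERT2 knock-in, a tamoxifen-inducible recombinase, that had been immortalized with retroviruses for Hoxa9 and a floxed Meis1 and that grew in 10% serum with 5 ng/ml IL-3. The Meis1 deleted group (4 arrays) was treated with 2 µM 4-hydroxytamoxifen to remove the Meis1 cDNA and kept Hoxa9. The Hoxa9 and Meis1 group (4 arrays) was the same kind of cell without the drug. Both groups carry the recombinase, so Cre activity and the drug itself cannot be told apart from the loss of Meis1 in any difference below. Separate cultures are not stated for the arrays of a group, so the spread behind each p-value may be technical.

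Mitf, Tfeb, Tfe3 and Tfec are basic helix-loop-helix leucine zipper proteins that bind E-box DNA as dimers with each other. Tfeb and Tfe3 are best known as switches of lysosome and autophagy genes: when the kinase complex mTORC1 is active at the lysosome they are phosphorylated and held in the cytoplasm, and when it is inactive they enter the nucleus. Mitf is the master factor of melanocytes and also acts in osteoclasts, mast cells and macrophages, while Tfec is restricted mainly to macrophage-type cells. Gpnmb encodes a glycoprotein of melanosomes and lysosomes in pigment cells, osteoclasts and macrophages. Because nuclear entry controls these factors, their mRNA levels do not measure their activity.

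Of the whole table, 11836 genes could be tested, each by its brightest probe set above a filter on dim probe sets (log2 4.29), and 35.5% of them passed limma's test at an adjusted p under 0.05 (4206 genes, 2140 or 18.1% higher and 2066 or 17.5% lower). Over all 27022 probe sets above the filter the share was 31.3%. Meis1 itself read 5.02 ± 0.07 in Meis1 deleted cells and 5.00 ± 0.05 in Hoxa9 and Meis1 cells (SD, n = 4 each). The position of that probe set relative to the introduced Meis1 sequence is unknown here, so it does not check the deletion. Meis1 deleted replicate 1 stood apart in the RNA controls, with a Gapdh 3′ minus 5′ difference of 0.72 against -0.07 to 0.04 on the other 7 arrays. The arrays also fell into 2 sets by the spiked bioB control (mean 4.04 to 4.28 in set 1 and 6.43 to 6.61 in set 2), with 3 Meis1 deleted and 2 Hoxa9 and Meis1 arrays in set 1 and 1 and 2 in set 2. All 8 myeloid marker genes read above the filter, and those of B and T cells did so for 2 of 4 genes each with none past the test.

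Gpnmb and Mitf were higher after the deletion, by very different amounts, whereas Tfeb, Tfe3 and Tfec did not pass the test. Gpnmb was 11.7-fold higher (95% interval 10.9 to 12.5) and Mitf 1.73-fold higher (1.57 to 1.9). The folds of Tfeb (1.08), Tfe3 (1.12) and Tfec (1.05) lay above 1, and each interval also held folds below 1. So 2 of the 5 members passed, which is near the 35.5% called over all genes and is no result about the family as a whole. A rise of at least 2-fold was seen in 1 of the 5, against 2.51% of all genes.

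**Figure D1:**
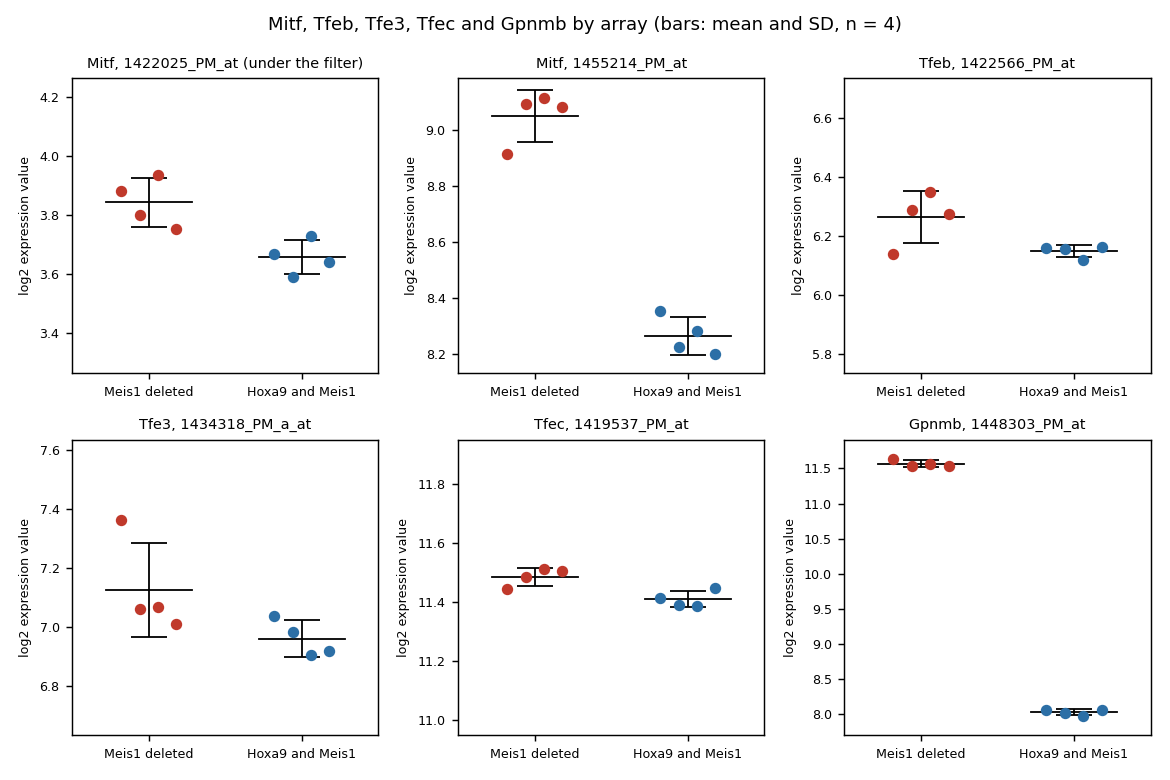
Log2 expression value (y axis) of each of the 6 probe sets on each array, with Meis1 deleted arrays on the left and Hoxa9 and Meis1 arrays on the right of every panel; lines and bars are the mean and SD of 4 arrays, and each panel has its own y range. The groups are separate for Gpnmb and for both Mitf probe sets and overlap for Tfeb, Tfe3 and Tfec. Over all genes tested, 38.6% had groups that did not overlap in either direction.

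Gpnmb read 11.63, 11.54, 11.56 and 11.54 on the Meis1 deleted arrays, and 8.06, 8.01, 7.97 and 8.05 on the Hoxa9 and Meis1 arrays. All Meis1 deleted arrays were far above all Hoxa9 and Meis1 arrays, and the arrays of a group lay within about 0.1 of each other. Groups that did not overlap in this direction were seen for 19.7% of all genes tested. The means were 11.57 ± 0.05 and 8.02 ± 0.04 (SD, n = 4 each), a log2 fold change of 3.55 ± 0.04 (SE) with a limma adjusted p of 8.69e-11. By size of rise it ranked 30 of the 11836 genes. The difference was 3.55 within bioB set 1 and 3.53 within bioB set 2, and 3.52 without Meis1 deleted replicate 1. In the Hoxa9 and Meis1 cells the level of 8.02 was already well above the filter, so this was a rise of a gene with measurable signal in both groups.

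Macrophage markers moved in the same direction as Gpnmb. Of 8 marker genes, 7 rose and 1 fell, and their summed signal ran from 13.0 to 13.1 in Meis1 deleted cells and from 11.8 to 11.9 in Hoxa9 and Meis1 cells (log2 of the sum, over 4 arrays each). Their part in the result was not tested. In these bulk samples, more cells of a type and more RNA per cell cannot be told apart.

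The Gpnmb promoter is shown because Gpnmb rose most among the members and because E-boxes are the sites that Mitf and Tfe proteins recognise. The sequence is the RefSeq one on GRCm38.p6, chr6:49036268-49036567, plus strand, from 250 bases before to 50 bases after the start site, and capitals mark TGACTCA, the core letters bound by AP-1 factors, which begins at base 9 after the start site.
Gpnmb: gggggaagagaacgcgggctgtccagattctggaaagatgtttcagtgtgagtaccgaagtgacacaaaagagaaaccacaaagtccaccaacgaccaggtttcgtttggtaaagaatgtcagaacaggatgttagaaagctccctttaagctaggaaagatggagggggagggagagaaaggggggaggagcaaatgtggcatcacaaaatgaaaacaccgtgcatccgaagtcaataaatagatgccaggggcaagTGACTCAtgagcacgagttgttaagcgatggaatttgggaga
Neither CACGTG nor CATGTG, searched on both strands, occurs in this window or in any of the 10 promoters that the RefSeq table gives for the 5 members. Of all 32851 promoters in that table, 7.15% hold CACGTG, 14.2% hold CATGTG and 5.2% hold TGACTCA. These matches describe letters only, and no match means only that the letters are not in these 300 bases. TGACTCA was added to the search after the promoter sequences were seen, so its presence here is no result.

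Mitf, the family's pigment cell and osteoclast factor, was the one transcription factor of the 4 that rose. Its brighter probe set read 8.92, 9.09, 9.12 and 9.08 on the Meis1 deleted arrays, against 8.35, 8.22, 8.28 and 8.20 on the Hoxa9 and Meis1 arrays. Every Meis1 deleted array was above every Hoxa9 and Meis1 array, as was true in either direction for 38.6% of all genes tested and in this direction for 19.7%, and Meis1 deleted replicate 1 was the lowest of its group. The log2 fold change was 0.79 ± 0.06 (SE) with a limma adjusted p of 8.69e-06. It was 0.75 within bioB set 1 and 0.84 within bioB set 2, where the lone Meis1 deleted array was assumed to vary like the others, and 0.83 without Meis1 deleted replicate 1.

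The dimmer Mitf probe set lay under the filter in both groups. It read 3.88, 3.80, 3.93 and 3.75 in Meis1 deleted cells and 3.67, 3.59, 3.73 and 3.64 in Hoxa9 and Meis1 cells. The groups did not overlap, and with no filter the log2 fold change was 0.19 ± 0.05 (SE, limma adjusted p = 0.0399), beside 18.8% of probe sets called in that fit and 8.69% called higher. At this low signal the difference is no measure of the size of a change and was not used beside the brighter probe set. The Mitf transcripts that each probe set reads are unknown here.

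Mitf is transcribed from several promoters, and the RefSeq table gives 3 of them. The one shown, chr6:97991533-97991832 on GRCm38.p6, plus strand, is the only one with any of the 4 searched motifs, and capitals mark TGACGTCA, the cAMP response element that begins at position -153 from the start site.
Mitf: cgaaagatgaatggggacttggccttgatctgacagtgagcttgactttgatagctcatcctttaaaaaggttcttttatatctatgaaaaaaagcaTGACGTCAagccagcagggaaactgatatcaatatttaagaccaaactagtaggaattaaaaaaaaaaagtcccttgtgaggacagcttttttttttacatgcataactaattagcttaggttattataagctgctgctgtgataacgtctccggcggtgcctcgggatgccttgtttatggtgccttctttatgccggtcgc
TGACGTCA was added to the search after the promoter sequences were seen, so its presence here is no result. Of all promoters, 1.79% hold it. The arrays do not tell which promoter gave the Mitf signal.

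Tfeb, the lysosome and autophagy factor, read 6.14, 6.29, 6.35 and 6.28 on the Meis1 deleted arrays and 6.16, 6.16, 6.12 and 6.16 on the Hoxa9 and Meis1 arrays. The groups overlapped through Meis1 deleted replicate 1 alone, which lay among the Hoxa9 and Meis1 values. The log2 fold change was 0.11 ± 0.05 (SE, 95% interval -0.0038 to 0.23, limma adjusted p = 0.124). Without Meis1 deleted replicate 1 it was 0.16 ± 0.04 and passed the test (limma adjusted p = 0.0154), so for Tfeb that array decided the call.

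Tfe3, the broadly expressed relative of Tfeb, read 7.36, 7.06, 7.07 and 7.01 on the Meis1 deleted arrays, against 7.04, 6.98, 6.91 and 6.92 on the Hoxa9 and Meis1 arrays. Meis1 deleted replicate 1 was the highest of all arrays, the opposite of its place for Tfeb and Mitf, and the lowest Meis1 deleted value fell under the highest Hoxa9 and Meis1 value. The log2 fold change was 0.17 ± 0.08 (SE, 95% interval -0.013 to 0.34, limma adjusted p = 0.140), and without that array it was 0.086 (adjusted p = 0.192). Whether the array's 3′ to 5′ difference bears on its Tfe3, Tfeb and Mitf values was not tested.

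Tfec, the macrophage-restricted member, gave a bright and steady signal. It read 11.44, 11.49, 11.51 and 11.50 in Meis1 deleted cells and 11.41, 11.39, 11.39 and 11.45 in Hoxa9 and Meis1 cells. The groups overlapped at a single pair of arrays, and the log2 fold change was 0.076 ± 0.041 (SE, 95% interval -0.016 to 0.17, limma adjusted p = 0.185). The interval leaves room for a change of at most 1.12-fold upward. The Tfec signal was thus measured well above the filter in the Hoxa9 and Meis1 cells too, in which macrophage markers were lower.

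The rise of Gpnmb exceeded the change of each factor. On the log2 scale the difference between the changes was 2.76 against Mitf, 3.43 against Tfeb, 3.38 against Tfe3 and 3.47 against Tfec. Each gave p = 0.0286 in a two-sided exact permutation test over the 70 assignments of arrays to groups, the smallest p this design allows, and 0.0286 after Benjamini-Hochberg adjustment over the 4 differences. Gpnmb was one side of every difference, so the 4 tests are not independent. The Gpnmb groups also lay much farther apart than any factor changed. Full separation, and so this p, followed from the fold changes given above, and the p adds nothing to them.

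**Figure D2:**
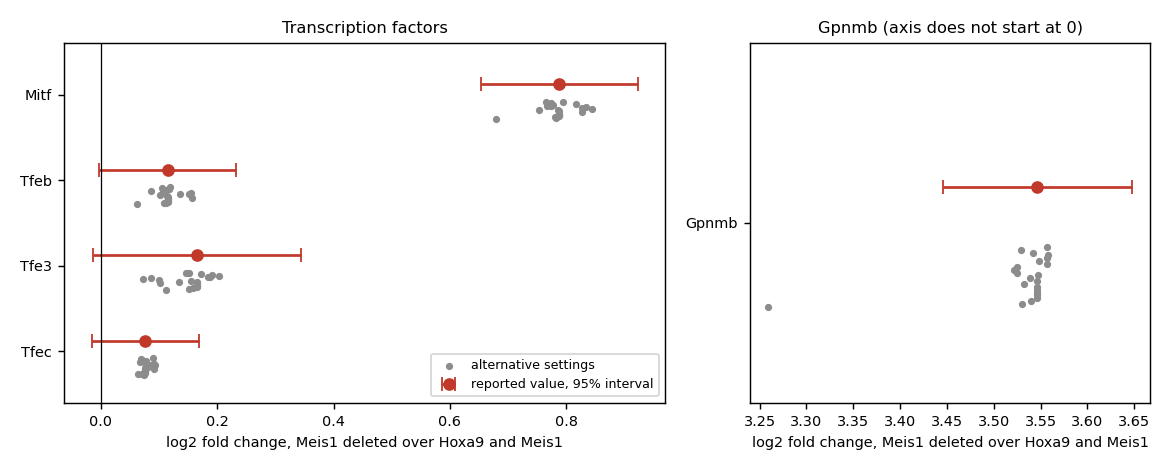
Log2 fold change of each member, Meis1 deleted over Hoxa9 and Meis1, with the reported value and its 95% interval in red and the values under 22 alternative settings as grey points below it; the Gpnmb panel has its own axis that does not start at 0. Mitf stays between 0.68 and 0.84 and Gpnmb between 3.26 and 3.56, while the intervals of Tfeb, Tfe3 and Tfec cross 0.

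The genes most like each member over the 8 arrays were taken by Pearson correlation, as a description. For Gpnmb they were Ccl6 (r = 0.9999), Ccl2 (0.9999) and Cd200r4 (0.9998), but 264 genes had an r above 0.99, since any gene with a large clean difference between the groups does. For Mitf they were Trim34a (0.9981), Ms4a6c (0.9971) and Dram2 (0.996), and 27 genes passed 0.99. Dram2 is a membrane protein tied to autophagy and rose by 0.69 ± 0.06 on the log2 scale (limma adjusted p = 1.59e-05).

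The genes nearest to the other 3 factors correlated less closely. Asb8 (r = 0.9948), Ciz1 (0.9943) and Cfl1 (0.9889) were nearest to Tfe3, and none of the 3 passed the test. 2810004N23Rik (0.9874), Cenpb (0.9863) and Ccdc125 (0.977) were nearest to Tfeb, and Itgb1bp1 (0.9833), Prrg2 (0.9782) and Zdhhc13 (0.9751) to Tfec, with limma adjusted p between 0.00844 and 0.0546 among those 6. No gene passed an r of 0.99 with Tfeb or Tfec. The 8 arrays share the same group difference, so these correlations have no p.

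In the machinery that holds Mitf and Tfe factors at the lysosome, Fnip2, Rragd, Flcn and Rragc rose. Rag GTPases on the lysosome recruit both mTORC1 and the factors themselves, and folliculin with its Fnip partners activates RagC and RagD for that task. Of 18 tested genes of the list (22 listed), 9 rose, 2 fell and 7 did not pass, with a median log2 fold change of 0.11, against a median of -0.0044 and 18.1% higher and 17.5% lower over all genes. The median was 0.11 within bioB set 1 and 0.091 within bioB set 2, and bioB set 2 holds a single Meis1 deleted array. The counts were 6 higher and 0 lower within each set, on fewer arrays, and 9 rose and 1 fell without Meis1 deleted replicate 1.

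Fnip2, a folliculin partner, rose most, with 10.37, 10.35, 10.32 and 10.26 in Meis1 deleted cells and 8.21, 8.13, 8.17 and 8.19 in Hoxa9 and Meis1 cells. That was a log2 fold change of 2.15 ± 0.04 (SE, limma adjusted p = 1.06e-09), while its paralogue Fnip1 did not pass (0.037). Rragd, which encodes RagD, read 6.06, 5.93, 5.84 and 5.89 in Meis1 deleted cells, against 4.60, 4.53, 4.60 and 4.66 in Hoxa9 and Meis1 cells, close to the filter. Its log2 fold change was 1.33 ± 0.06 (limma adjusted p = 1.81e-07).

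Flcn, encoding folliculin, rose by 0.55 ± 0.06 (limma adjusted p = 0.000155) and Rragc, encoding RagC, by 0.51 ± 0.04 (1.95e-05). The groups did not overlap for either gene, as was true in this direction for 19.7% of all genes tested. Fnip2, Rragd, Flcn and Rragc are known in other cells as genes that Tfe factors switch on, so they stand on both sides of these proteins. Lamtor3, a subunit of the Ragulator scaffold, rose by 0.40 and Mtor by 0.28. The 2 that fell were Tsc1, a brake on mTORC1, which fell by 0.18, and Lamtor4, a further Ragulator subunit, which fell by 0.18.

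The Rragc promoter is shown as the one of these 4 genes with an E-box in the window. It lies at chr4:123917183-123917482 on GRCm38.p6, plus strand, and capitals mark CACGTG, which begins at position -112 from the start site.
Rragc: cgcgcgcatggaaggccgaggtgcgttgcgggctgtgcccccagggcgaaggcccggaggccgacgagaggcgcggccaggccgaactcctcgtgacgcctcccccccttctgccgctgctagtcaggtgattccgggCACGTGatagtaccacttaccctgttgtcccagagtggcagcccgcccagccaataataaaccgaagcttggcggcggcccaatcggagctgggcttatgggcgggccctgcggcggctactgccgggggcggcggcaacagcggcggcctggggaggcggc
Over the list, 6 of 21 genes with a promoter in the table held CACGTG (28.6%), against 8.09% of all genes. Among the 9 lists the share ran from 0.0% (mast cell genes) to 55.0% (CLEAR network genes), with 33.3% for the other E-box factors. The list holds genes known to be switched on by Tfe factors and the share was not tested, so it is not a finding. The Fnip2 and Rragd windows held none of the 4 motifs, and the Flcn window held TGACGTCA.

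Among kinases, phosphatases and carriers that act on the factors, Mcoln1, Ppp3r1 and Gsk3b rose. Of 16 tested genes 3 rose, 0 fell and 13 did not pass, with a median of 0.0048, and the share that rose was near the 18.1% higher over all genes (17.5% were lower). Mcoln1, the lysosomal calcium channel whose current activates calcineurin, rose by 0.53 ± 0.11 (limma adjusted p = 0.00435), with 2 of its 3 probe sets past the test. Ppp3r1, the regulatory subunit of calcineurin, rose by 0.15 and Gsk3b, a kinase that phosphorylates the factors, by 0.28, though other probe sets of both genes read as low as -0.027 and -0.13. The next by p, the 14-3-3 gene Ywhah, read -0.12 (limma adjusted p = 0.0934). Without Meis1 deleted replicate 1 the counts were 3 higher and 2 lower.

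Among receptors, ligands and partner factors upstream of Mitf, 3 of 11 tested genes rose and 0 fell, with a median of 0.067, against 18.1% higher and 17.5% lower over all genes. Csf1r, a tyrosine kinase receptor of macrophages, rose by 1.06 ± 0.08 (limma adjusted p = 7.93e-06), and Csf1, its ligand, by 0.50 ± 0.11. Of the 4 Csf1 probe sets 2 passed, and the lowest read -0.037. Spi1, the PU.1 factor that works with Mitf in osteoclasts, rose by 0.28 ± 0.06 (0.00626). Csf1r is also among the macrophage markers counted beside Gpnmb, and Spi1 is among the myeloid markers, so these rises are not separate from the marker counts. Without Meis1 deleted replicate 1 the counts were 4 higher and 1 lower, with a median of 0.14. Tnfrsf11a, the RANK receptor of osteoclast precursors, read 0.25 and did not pass. Kit, the receptor that signals to Mitf in pigment and mast cells, read -0.079 and did not pass either.

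Lysosomal genes of the CLEAR network, the group named for the E-box that Tfeb binds, were mostly higher. Of 19 tested genes (26 listed) 13 rose, 1 fell and 5 did not pass, with a median of 0.34, against 18.1% higher and 17.5% lower over all genes. The counts were 13 and 1 without Meis1 deleted replicate 1. The median was 0.36 within each bioB set. Ctsb, a lysosomal cysteine protease, rose by 1.96 ± 0.04 (limma adjusted p = 8.06e-10), and its 4 probe sets ranged from 1.96 to 3.71. Ctsd, an aspartic protease, rose by 1.32 ± 0.07 (9.55e-07), and Ctsa, a serine carboxypeptidase, by 0.88 ± 0.07 (7.41e-06). Psap, the precursor of sphingolipid activators, rose by 0.74.

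Wipi1, an autophagosome protein, was the exception and fell by 0.94 (SE 0.06, limma adjusted p = 2.89e-06), with 5 of its 5 probe sets above the filter lower. It read 8.81, 8.62, 8.72 and 8.58 in Meis1 deleted cells, against 9.59, 9.63, 9.57 and 9.70 in Hoxa9 and Meis1 cells. The network's genes thus did not all move together. The list was drawn from work on Tfeb targets. On the same arrays Mitf mRNA was higher, while Tfeb, Tfe3 and Tfec mRNA did not pass the test. Tfeb did pass without Meis1 deleted replicate 1 (limma adjusted p = 0.0154). These mRNA levels do not measure the activity of the factors, whose part in the CLEAR counts was not tested.

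**Figure D3:**
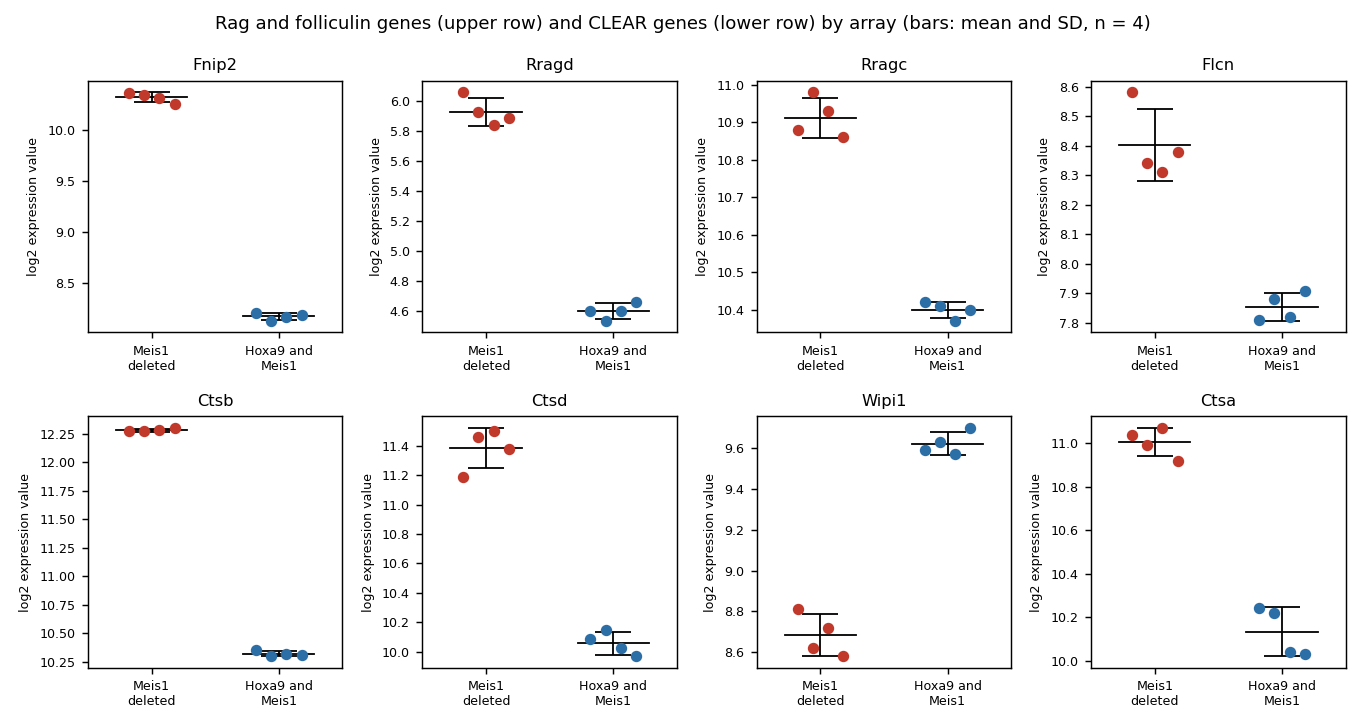
Log2 expression value (y axis, with its own range in each panel) of the 4 named Rag and folliculin genes and the 4 named CLEAR genes on each array, with Meis1 deleted on the left and Hoxa9 and Meis1 on the right; lines and bars are the mean and SD of 4 arrays. The groups are separate in all 8 panels, and Wipi1 is the one gene that is lower in Meis1 deleted cells. The 4 genes of each list were picked for the smallest p on these same arrays, so the separation is no result. Groups did not overlap in either direction for 38.6% of all genes tested.

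The Ctsd promoter is shown because it holds the E-box CACGTG at 2 places. Only these 6 letters were searched, not a longer CLEAR motif. It lies at chr7:142387778-142388077 on GRCm38.p6, minus strand, and capitals mark CACGTG, which begins at positions -245 and -98 from the start site.
Ctsd: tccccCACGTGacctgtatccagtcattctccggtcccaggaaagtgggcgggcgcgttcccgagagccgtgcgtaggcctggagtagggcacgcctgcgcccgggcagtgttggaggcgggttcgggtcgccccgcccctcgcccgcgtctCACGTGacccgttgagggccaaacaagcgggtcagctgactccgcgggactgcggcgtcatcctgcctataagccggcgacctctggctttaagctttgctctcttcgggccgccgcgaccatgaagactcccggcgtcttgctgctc
CACGTG was present in the promoters of 11 of the 20 listed CLEAR genes that the table holds, or 55.0%, against 8.09% of all genes. The network was named for an E-box, so the share is a check of the list and not a finding. One of the Ctsa promoters held CACGTG too, and the Wipi1 window held none of the 4 searched motifs.

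Osteoclast genes tied to Mitf and Tfe3 were higher in part. Of 10 tested genes 6 rose, 1 fell and 3 did not pass, against 18.1% higher and 17.5% lower over all genes. The median was 0.30, and it was 0.77 under a stricter filter that dropped the lowest 60% and 0.20 with an offset of 64. Atp6v0d2, a proton pump subunit of osteoclasts and macrophages, had the largest difference of all genes in these lists, with 8.81, 8.75, 8.75 and 8.87 in Meis1 deleted cells and 4.39, 4.26, 4.08 and 4.08 in Hoxa9 and Meis1 cells. The lower group lay around the filter, so the size of 4.60 ± 0.08 (SE, limma adjusted p = 2.53e-10) is uncertain. Ctsk, the collagen-degrading protease, rose by 1.31 ± 0.05 (3.48e-08), Mmp9 by 0.61 ± 0.10 (0.00112) and Clcn7, a lysosomal chloride transporter, by 1.20 ± 0.14 (0.000168). Of the 3 Clcn7 probe sets 1 passed. In Hoxa9 and Meis1 cells Ctsk (4.80) and Mmp9 (4.57) also read close to the filter, so the size of their rises is uncertain too. Of the 2 Mmp9 probe sets only 1 lay above the filter. Nfatc1, the osteoclast master factor, rose by 0.34, and Itgb3, the integrin subunit of osteoclast adhesion, fell by 0.28. The macrophage markers given beside Gpnmb were higher on the same arrays as the osteoclast and CLEAR genes, and their part in these counts was not tested. Of 5 osteoclast markers with a named probe set, 3 read above the filter and 1 of them rose, while Calcr and Ocstamp lay under it. All 5 are also in the osteoclast list, and the 1 that rose was Ctsk, already given above. The markers are thus no separate result, and neither is their sum. The summed signal of the osteoclast markers ran from 7.36 to 7.42 in Meis1 deleted cells and from 6.93 to 7 in Hoxa9 and Meis1 cells (log2 of the sum, over 4 arrays each). Acp5 (0.064) and Oscar (-0.0092) did not pass.

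No melanocyte gene and 1 mast cell gene tied to Mitf passed the test. Of 12 melanocyte genes, Tyr, Dct, Mlana, Oca2 and Gpr143 lay under the filter. Of the 7 tested 0 passed in either direction, with a median of 0.0024, against 18.1% higher and 17.5% lower over all genes. Slc45a2, Tyrp1, Trpm1 and Mc1r read only 4.50 to 4.68 in Hoxa9 and Meis1 cells, close to the filter of 4.29. A lack of calls among them may therefore reflect low signal. The 4 with the smallest p were Pmel (-0.14), Sox10 (0.12), Slc45a2 (0.12) and Rab27a (-0.055). Of 10 mast cell genes 6 lay under the filter, among them Cpa3 and Fcer1a, and of 4 tested 1 rose, Ms4a2, a subunit of the high-affinity IgE receptor (0.20 ± 0.07, limma adjusted p = 0.0435). Of the 2 Ms4a2 probe sets 1 passed. With 18.1% of all genes higher, 1 of 4 is no result about the mast cell list. Hdc (4.38) and Tpsb2 (4.56) were also close to the filter in Hoxa9 and Meis1 cells. Hdc (-0.097), Tpsb2 (0.11) and Kit did not pass, and Kit was lower past the test without Meis1 deleted replicate 1 (-0.21, limma adjusted p = 0.00922).

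Relatives and partners of Gpnmb gave a mixed picture. Of 7 tested genes 3 rose and 1 fell, with a median of 0.16, against 18.1% higher and 17.5% lower over all genes. Sdc4, a heparan sulphate proteoglycan that binds Gpnmb on T cells, rose by 1.47 ± 0.12 (limma adjusted p = 1.07e-05), Lamp1 by 0.33 and Itgb1 by 0.25, the last with 1 of 3 probe sets past the test. Cd44, a hyaluronan receptor that also binds Gpnmb, fell by 0.39. Adam10, a protease that sheds the Gpnmb ectodomain, read -0.0073, and Pmel, its closest relative, did not pass.

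Among other E-box factors of the same structural class, Myc and 5 others fell. Of 15 tested genes 0 rose, 6 fell and 9 did not pass, with a median of -0.092, against 18.1% higher and 17.5% lower over all genes. The 9 that did not pass lay on both sides of 0, from -0.099 (Mlx) to 0.18 (Mxd1). Myc fell by 0.90 (SE 0.09, limma adjusted p = 4.03e-05). Mxd4 and Mnt, which compete with Myc for its partner, fell by 0.48 and fell by 0.33 at their brightest probe sets. Of the 4 Mxd4 probe sets 2 were lower past the test and the highest read 0.014, and of the 2 Mnt probe sets 1 was lower past it. Srebf2, the factor of sterol synthesis genes, fell by 0.40. The 2 relatives closest in binding, Usf1 (0.091) and Usf2 (-0.20), split, with Usf2 lower and Usf1 not past the test. Mycn, a Myc relative, fell by 0.17. Within each bioB set, on fewer arrays, 2 of the 15 fell.

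**Figure D4:**
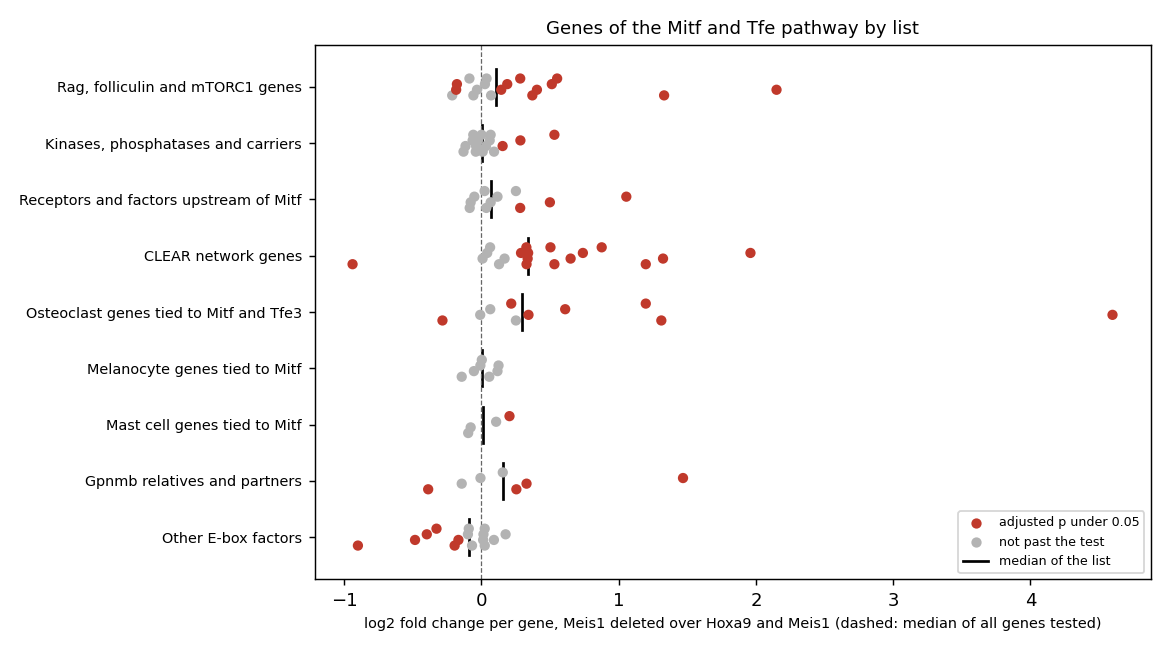
Log2 fold change (x axis, Meis1 deleted over Hoxa9 and Meis1) of every tested gene in the 9 lists, with red points past the limma test at an adjusted p under 0.05, grey points not past it, black bars at each list's median and a dashed line at the median of all genes. The CLEAR list lies mostly right of the line with Wipi1 far to the left, the melanocyte list holds no red point, and the other E-box factors have red points on the left side only.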

How the data were processed

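Gene expression was measured on 8 arrays, 4 per group, and precision is limited by that number. The deposited table holds log2 expression values that the authors had normalized between arrays, judged from the values themselves (2.65 to 13.2, array medians 4.69 to 4.74). The submitters' processing notes list MAS5 but give it no role. How probes were summarised, and on which genome build, is unknown here.

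Symbols came from the platform annotation (1 symbol for 28898 probe sets). The lowest 40% of probe sets by overall mean were left out, which kept 27022. limma 3.58.1 in R 4.3.3 (lmFit, eBayes) was run over these, and Benjamini-Hochberg adjustment covered the 11836 genes, each by its brightest probe set, at a threshold of 0.05. Each fold change takes Meis1 deleted over Hoxa9 and Meis1, with its SE. Levels are means ± SD. Genes named besides the members were, by rule, the 4 smallest p of each list and the 3 most correlated with each member, and others were picked after their values were seen. Members and lists were chosen with earlier results of these data known, and 7 genes are in more than 1 list. On simulated data for this comparison with 11836 genes, 21 of 50 genes changed by 0.25 were recovered, 40 of 50 by 0.5, 46 of 50 by 1 and 50 of 50 by 2, with 4 false calls. Far fewer genes were changed in the simulation than the 35.5% called in the real data. Its noise was drawn independently, with no bioB sets and no array that stood apart. The recovered counts thus check the code and do not measure the power of this comparison. Motifs TGACGTCA and TGACTCA were added after the promoter sequences were seen, and RefSeq promoters (GRCm38.p6) were matched by symbol. Alternatives covered scale, normalization, filter, probe set choice, variance model, weights, replicate block, bioB set and each array left out. Figures were made in matplotlib 3.10.9 (Python 3.11.15).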

Additional observations from a re-analysis of the deposited data

Results flagged for a closer look

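In 12 groups of 4 arrays (6 probe sets in each group), 3 single arrays lay far from the other 3 of their group, and chance alone marks about 1 in 20 such groups. Meis1 deleted replicate 1 was the low one for the brighter Mitf probe set (8.92) and the high one for Tfe3 (7.36). The Tfeb value of 6.12 in Hoxa9 and Meis1 replicate 3 was marked too, in a group whose arrays span less than 0.05.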

How the results depend on the processing

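Gpnmb and Mitf kept direction and call under all 22 alternatives, from 3.26 to 3.56 (limma adjusted p at most 0.00102) and from 0.68 to 0.84 (at most 0.00952). Tfe3 passed in 0 of 22 (adjusted p 0.0798 to 0.405). Tfeb passed with array weights (0.16, limma adjusted p = 0.0109), without Meis1 deleted replicate 1 (0.16) and with the bioB set as a block and that array left out (0.15, 0.0101). Tfec passed with an offset of 64 (0.075, adjusted p = 0.0372). With each array left out in turn the log2 fold changes ran from 0.77 to 0.83 for Mitf, 0.086 to 0.16 for Tfeb, 0.086 to 0.20 for Tfe3, 0.068 to 0.091 for Tfec and 3.52 to 3.56 for Gpnmb, and the number of genes called from 3426 to 4673. Within bioB set 1 and bioB set 2 it was 2114 and 2158, on fewer arrays. The difference between the changes of Gpnmb and Mitf was 2.75 with quantile normalization and 2.58 with an offset of 64, and those against Tfeb, Tfe3 and Tfec were 3.42, 3.38 and 3.47 and then 3.20, 3.15 and 3.18. Their p is the smallest the design allows, so it says nothing about stability. The osteoclast median was 0.20 with an offset of 64, 0.23 with no filter and 0.77 with the lowest 60% left out. The estimate of the spread over genes only was chosen after seeing the data and changed no member's call. With the replicate block 3906 genes passed and no member's call changed (Gpnmb adjusted p = 4.28e-07, Mitf 0.0005, Tfeb 0.178, Tfe3 0.0798, Tfec 0.259). Deviations of same-numbered arrays correlated at 0.0252, 0.224, -0.131 and 0.289, and not every array correlated best with its own number, so the samples share only a number.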

Other observations

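Promoters of the melanocyte genes tied to Mitf held the other E-box, CATGTG, in 6 of the 7 genes with an entry, against 15.9% of all genes. The list was chosen as Mitf targets and Mitf binds this motif, so the share describes the list and is not a finding.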
